A study of Mus musculus with 3 samples.

Results

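The 39 interferon response genes described here are a list of gene names, drawn up with earlier results of these data known but with no cutoff on measured values, and 37 of them were measured among the 32285 gene rows of each library. The antiviral genes Mx1 and Mx2 were not analysed here. The values come from fracture callus, the repair tissue that bridges a broken bone, taken on day 7. The mice were female C3H/HeJ animals 9 weeks old, a strain that heals fractures slowly, and their femoral shafts had been pinned and broken. There were 3 droplet single-cell RNA libraries, 1 per group. The YKL group received YKL-05-099, an inhibitor of the salt-inducible kinases, at 15 mg/kg. The PTH group received the 1-34 fragment of parathyroid hormone at 100 µg/kg. The Control group received the vehicle, phosphate-buffered saline. All injections were subcutaneous and daily, all mice carried the fracture and the pin, and the labels do not say whether a library held 1 animal or several. The question of the study was whether inhibitors of these kinases stimulate fracture mineralization, and the comparisons below ask which cell types carried the interferon genes in each library and whether few cells or all cells did.

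Interferons are secreted proteins that warn cells of infection. Type I interferons act through a receptor of Ifnar1 and Ifnar2 and the kinases Jak1 and Tyk2. A transcription complex that includes Stat2 and Irf9 then binds interferon-stimulated response elements and switches on antiviral genes. Interferon gamma acts through Ifngr1 and Ifngr2, with Irf1 as a second wave, and is known for inducing guanylate-binding proteins and immunity-related GTPases. Endothelial cells, macrophages and neutrophils are known responders to both kinds, and interferons are known in bone for restraining osteoclast formation.

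The promoters of several members carry the response element in a form that can be read directly. The search took GAAA, any 2 bases and GAAA again, which on the other strand reads TTTC, any 2 bases and TTTC, within the 250 bases before a transcription start in RefSeq's promoter table for GRCm38.p6. It was found in 15 of the 29 members in that table (51.7%) and in 936 of all 27025 genes of the table (3.46%). Overlapping matches were counted. The following stretches show it for 8 members from the role groups described below, written in the direction of transcription with every match in capitals and 15 bases on either side where the table allows.
Isg15, chr4:156200860-156200911, minus strand: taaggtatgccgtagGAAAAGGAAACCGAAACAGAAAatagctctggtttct
Ifit1, chr19:34640770-34640828, plus strand: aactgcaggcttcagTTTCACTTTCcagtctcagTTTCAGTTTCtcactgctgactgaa
Ifit3, chr19:34583358-34583431, plus strand: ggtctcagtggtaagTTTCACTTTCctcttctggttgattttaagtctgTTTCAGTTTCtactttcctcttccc
Rsad2, chr12:26456548-26456587, minus strand: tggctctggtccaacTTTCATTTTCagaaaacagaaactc
Oas1a, chr5:120907526-120907560, minus strand: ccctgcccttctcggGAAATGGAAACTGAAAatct
Bst2, chr8:71537572-71537617, minus strand: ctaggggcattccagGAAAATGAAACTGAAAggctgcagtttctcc
Gbp2, chr3:142620589-142620628, plus strand: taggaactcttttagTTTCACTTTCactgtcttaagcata
Igtp, chr11:58199507-58199546, plus strand: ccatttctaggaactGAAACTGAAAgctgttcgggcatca
Isg15 held 3 overlapping matches, while Ifit1, Ifit3, Oas1a and Bst2 held 2 each. A match is a description of these letters and not of binding.

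Filtering left 604 YKL, 1912 PTH and 2907 Control cells, with medians of 25867.5, 12290.5 and 11633 unique molecular identifiers (UMIs, 1 per captured RNA molecule) per cell. Barcodes with over 10% mitochondrial UMIs, which were removed, made up 44.5% of the PTH library, against 18.5% of YKL and 17.6% of Control. PTH and Control shared 1 kept barcode, and no other pair of libraries shared any. Cells were clustered with the interferon genes left out, and clusters were named from markers. Chondrocyte-like cells (cartilage) made up 71.9% of YKL, 34.7% of PTH and 52.4% of Control cells. Levels are given as CPM (counts per 1000000 UMIs of the cells named), with counting error only. The libraries also differed in the neutrophil markers S100a8 and S100a9 outside neutrophil-like cells. These genes together reached 8.74, 32.9 and 3294 CPM in YKL, PTH and Control endothelial-like cells, and 5050, 24.1 and 4277 CPM in macrophage or monocyte-like cells. The source of these UMIs was not tested.

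By level per UMI, the summed interferon genes stood higher in the named vessel, stromal and myeloid classes than in chondrocyte-like cells in all 3 libraries. The 37 members together reached 1445 CPM in YKL, 2543 CPM in PTH and 1598 CPM in Control endothelial-like cells, and 1479, 3072 and 1934 CPM in macrophage or monocyte-like cells. Chondrocyte-like cells lay at 102, 111 and 93.7 CPM, below every other class in the plot of levels by class. Unnamed clusters are not in that plot. The one led by Ibsp, Mmp13 and Cthrc1 had 139, 373 and 195 CPM in YKL, PTH and Control. Its Control value lay below the 211 CPM of 1 chondrocyte-like cluster. The cluster led by Thbs4, Tnmd and Kera had 295 CPM in its 210 PTH cells, with 1 cell in YKL and 0 in Control. Cartilage RNA is dominated by a few matrix genes, so counts per cell are given too: 12.7, 20.6 and 10.9 member UMIs per endothelial-like cell, against 3.15, 2.01 and 1.53 per chondrocyte-like cell, although chondrocyte-like cells were the deeper ones.

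**Figure D1:**
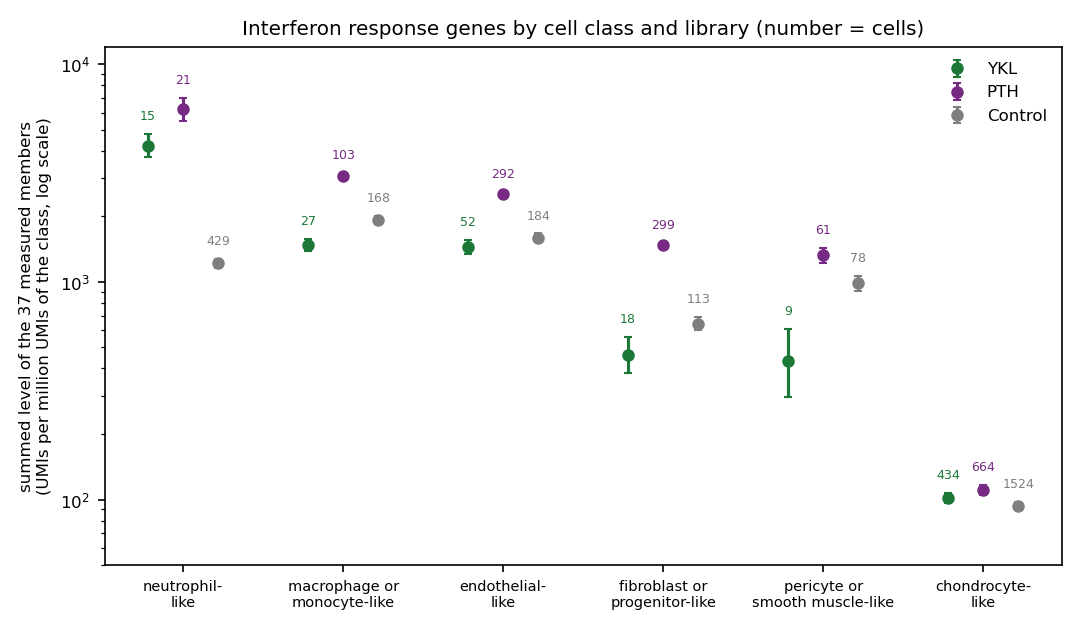
Summed level of the 37 measured members (CPM, log axis) in 6 cell classes of the YKL, PTH and Control libraries; bars are 95% exact Poisson intervals, which cover counting error only, and small numbers are cells. Chondrocyte-like cells lie near 100 CPM in all 3 libraries, and the other classes lie above 400 CPM.

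Fibroblast or mesenchymal progenitor-like cells (fibroblast-like below) held 462 CPM of the members in YKL, 1479 CPM in PTH and 643 CPM in Control. Pericyte or smooth muscle-like cells held 431, 1324 and 984 CPM, the YKL value from 9 cells. Neutrophil-like cells held 4226 CPM in YKL, 6203 CPM in PTH and 1218 CPM in Control, from 15, 21 and 429 cells. That was the highest class value in YKL and PTH, while in Control it lay below those of macrophage, endothelial and T or NK-like cells (1629 CPM). Neutrophil-like cells fell into 2 clusters, both led by S100a9, S100a8 and Retnlg. The first had Il1b and Cxcl2 among its leading genes and is called the mature cluster below. It had 9108, 9518 and 2771 CPM of the members in YKL, PTH and Control. The second, which alone had the granule genes Camp, Ngp and Ltf among its leading genes, had 821, 1104 and 684 CPM. The first cluster made up 180 of 429 Control neutrophil-like cells, against 11 of 15 in YKL and 15 of 21 in PTH, so the class values across libraries set different mixtures side by side.

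The share of a library's member UMIs that each class supplied followed its cell numbers as well as its level. Endothelial-like cells supplied 17.6% of member UMIs in YKL, 30.5% in PTH and 16.4% in Control, from 8.61%, 15.3% and 6.33% of the cells. Fibroblast-like cells supplied 2.93%, 25.5% and 6.09%, and macrophage-like cells 27.8%, 18.1% and 25.1%. Chondrocyte-like cells supplied 36.3% in YKL, the largest share of any class there, and 6.75% in PTH and 18.9% in Control. Over all kept cells the members reached 240 CPM in YKL, 738 CPM in PTH and 343 CPM in Control, values that join a difference in cell makeup with any difference in level.

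Classes with at least 10 cells in every library were ranked by level: chondrocyte, endothelial, neutrophil, fibroblast and macrophage-like cells. The other classes, such as pericyte and T or NK-like cells, and the unnamed clusters were not ranked. For 21 members the highest of these 5 classes was the same in all 3 libraries. Neutrophil-like cells led for 11 of them: the antiviral genes Ifit1, Ifit3, Ifit3b, Rsad2, Oas3, Oasl1, Oasl2, Rtp4 and Samd9l, the ubiquitin-like modifier Isg15 and the transcription factor Irf9. In YKL this lead rests on 1 UMI for Oas3 and 2 for Irf9, and on 1 cell each for Ifit1, Ifit3 and Oasl1. The PTH lead comes from 21 neutrophil-like cells that held 43687 UMIs of all genes together. For Irf9 the lead was close to a tie in 2 libraries. It was 32.8 CPM against 32.5 CPM in macrophage-like cells of Control, and 32.3 CPM against 30.6 CPM in endothelial-like cells of YKL. Endothelial-like cells led for 7, among them the tether Bst2, which holds budding virus at the membrane, and the GTPases Gbp2, Gbp3 and Iigp1. Macrophage-like cells led for Oas1a, the nucleic acid sensor Zbp1 and the immunoproteasome subunit Psmb8. Chondrocyte-like cells led for none.

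Against chondrocyte-like cells the members were higher almost throughout. The test took UMIs summed per library and class, with the library as a block, and used edgeR's quasi-likelihood test with Benjamini-Hochberg adjustment over 10865 genes. The 3 libraries served as replicates although each had another treatment, and separate animals are not documented. With the library as a block, the p-values measure how differences between classes varied across these libraries, treatment included. They do not measure a spread between animals. Oas2 had too few UMIs, which left 36 members. Of these, 33 were higher in endothelial-like cells at an adjusted p under 0.05 and none was lower, where 25.1% of all genes were higher and 29.3% lower. In fibroblast-like cells 30 were higher and 0 lower (all genes 21.5% and 20.6%), and in macrophage-like cells 32 and 0 (26.5% and 31.6%). In neutrophil-like cells 29 were higher and 1 lower (21.5% and 37.9%). At an unadjusted p under 0.05, 34, 31, 32 and 32 members passed in either direction, and DESeq2 found 33, 29, 32 and 29 higher, in the same order of classes. Median log2 fold changes were 3.96, 2.94, 3.56 and 4.99, against -0.10, -0.04, -0.13 and -0.79 over all genes. The fibroblast-like count fell to 18 without the PTH library, and to 16 of 27 tested at a limit of 5% mitochondrial UMIs; the macrophage-like count there was 22.

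**Figure D2:**
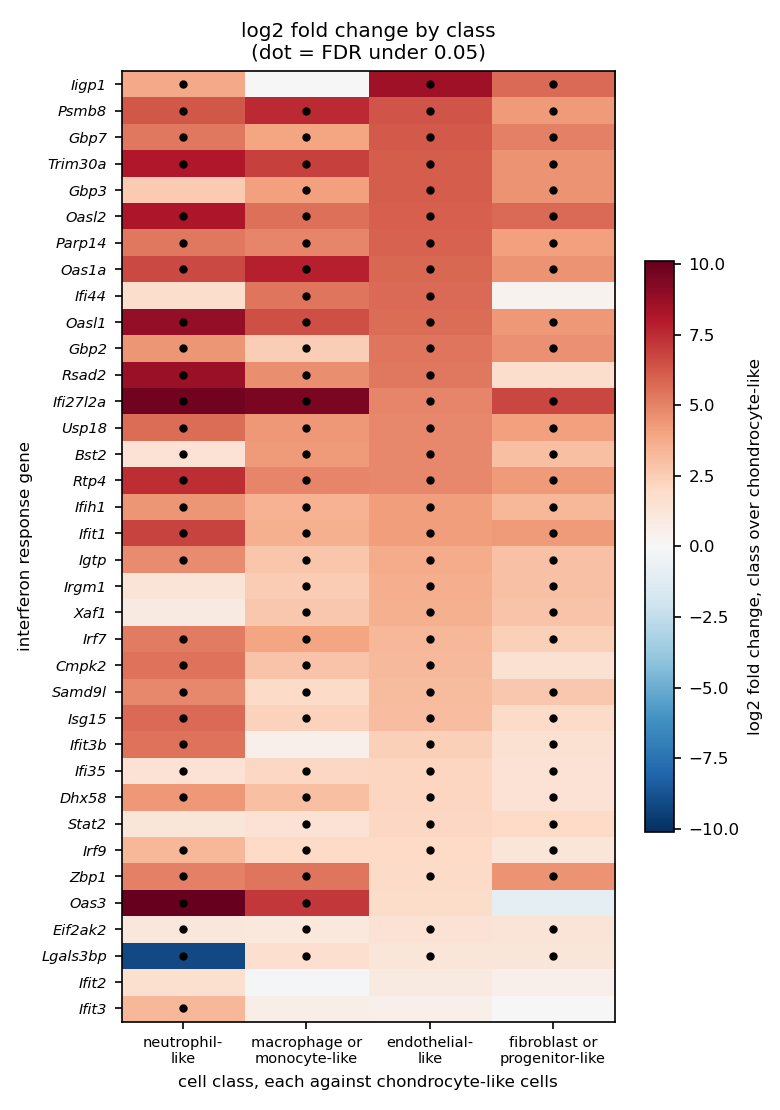
Log2 fold change of 36 members (rows) in each of 4 cell classes over chondrocyte-like cells (columns), with a dot where edgeR's adjusted p is under 0.05. Nearly all fields are red (higher in the class); the blue field with a dot is Lgals3bp in neutrophil-like cells, and Ifit2 has no dot in any class.

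The IFIT proteins bind viral RNA or its translation machinery. Ifit1 had 15.3 CPM in YKL, 68.8 CPM in PTH and 8.73 CPM in Control endothelial-like cells, and 2.39, 0.415 and 0.281 CPM in chondrocyte-like cells. In YKL chondrocyte-like cells 27 of its 32 UMIs lay in 1 cell. The log2 fold change of Ifit1 in endothelial over chondrocyte-like cells was 4.19 ± 0.72 (approximate SE, adjusted p 2.53e-05, edgeR). Here and below the value after ± is the log2 fold change divided by the square root of edgeR's F statistic. Ifit3 behaved otherwise: it had 24.0, 45.6 and 9.52 CPM in endothelial-like cells and 11.4, 10.6 and 10.53 CPM in chondrocyte-like cells. Its log2 fold changes were 0.51 in endothelial, 0.04 in fibroblast and 0.59 in macrophage-like cells, none of which passed the test, and 3.32 ± 0.57 in neutrophil-like cells (adjusted p 2.44e-05, edgeR). Ifit2 passed in no class. Ifit3 and Ifit3b are near-identical copies, so reads that match both could have affected the count of either.

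The 2′-5′ oligoadenylate synthetases make the messenger that activates RNase L, while the related Oasl1 and Oasl2 are OAS-like proteins. Oasl2 had 21.9, 62.5 and 30.1 CPM in YKL, PTH and Control endothelial-like cells, against 0.373, 0.166 and 0.402 CPM in chondrocyte-like cells, a log2 fold change of 6.02 ± 0.43. Of the tested classes Oas1a was highest in macrophage-like cells, with 38.3, 39.5 and 21.9 CPM there and 1, 2 and 1 UMIs in all chondrocyte-like cells of YKL, PTH and Control. Its Control ratio of 545 therefore had an interval of 91.6 to 22130. Oas1a was not confined to that class: its log2 fold changes were 5.83 in endothelial, 4.53 in fibroblast and 6.67 in neutrophil-like cells, beside 7.85 in macrophage-like cells. Oas3 lay in Control neutrophil-like cells at 32.8 CPM against 1 chondrocyte-like UMI, a ratio of 817 with an interval of 140 to 32880. In endothelial-like cells it had 0, 0 and 1 UMIs. Oasl1 had 22 UMIs in Control neutrophil-like and 2 in Control chondrocyte-like cells, a ratio of 176 (interval 43.3 to 1545).

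The transducers and regulators of the response were also higher outside cartilage. Isg15, which is joined to other proteins during the antiviral response, had 56.8, 174 and 82.5 CPM in YKL, PTH and Control endothelial-like cells and 7.45, 6.80 and 6.35 CPM in chondrocyte-like cells, a log2 fold change of 3.10 ± 0.39. Neutrophil-like cells held more of it, at 403, 1076 and 158 CPM, with 17 of the 25 YKL UMIs and 17 of the 47 PTH UMIs in 1 cell each. Irf7, the factor that amplifies type I interferon, had 21.9, 39.3 and 19.8 CPM in endothelial-like cells, against 1.19, 1.58 and 1.81 CPM in chondrocyte-like cells. Stat2 and Irf9, parts of the same transcription complex, rose by 2.09 and 2.0 on the log2 scale in endothelial over chondrocyte-like cells. Usp18, the protease that removes Isg15 and dampens receptor signalling, rose by 4.82 there. Irf7 and Irf9 overlap the neighbouring genes Phrf1 and Rnf31, and no source used here says whether counting used strand.

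Among the sensors, the kinase Eif2ak2 (PKR) was the most even across classes. It had 35.0, 73.4 and 44.4 CPM in YKL, PTH and Control endothelial-like cells against 11.3, 13.1 and 11.3 CPM in chondrocyte-like cells, and its log2 fold changes lay between 1.06 and 1.48 in the 4 classes. Ifih1 (MDA5), which detects double-stranded RNA, rose by 3.36 to 4.47 in the 4 classes. Zbp1, which senses Z-form nucleic acid, rose by 5.41 ± 0.45 in macrophage-like and by 1.93 ± 0.68 in endothelial-like cells (adjusted p 1.69e-10 and 0.0192, edgeR). Dhx58, a regulator of the RNA sensors, passed in all 4 classes but overlaps the antisense gene Dhx58os.

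Summed, the GTPases linked to interferon gamma were highest in endothelial-like cells, but they were not confined to them. Iigp1, which attacks the vacuoles of intracellular parasites, had 54.6 CPM in YKL, 184 CPM in PTH and 138 CPM in Control endothelial-like cells, against 0, 0.415 and 0.201 CPM in chondrocyte-like cells. Its log2 fold change of 8.53 ± 0.43 was the largest of any member in that class (adjusted p 1.79e-14, edgeR). With so few chondrocyte-like UMIs of Iigp1, the value after ± may be too small. Macrophage-like cells had 0, 0 and 1 UMIs of Iigp1 in YKL, PTH and Control. Pericyte-like cells had 135 CPM of it in PTH and 90.3 CPM in Control. Gbp7 and Gbp3 rose by 6.21 ± 0.30 and 6.08 ± 0.35 in endothelial over chondrocyte-like cells, Gbp2 by 5.44 ± 0.39 and Igtp by 3.73 ± 0.48. Gbp7 also rose by 5.12 in fibroblast-like and by 5.31 in neutrophil-like cells. The 6 GTPases together reached 195, 430 and 306 CPM in YKL, PTH and Control endothelial-like cells, against 3.65, 4.31 and 2.17 CPM in chondrocyte-like cells. Pericyte-like cells held 53.9, 273 and 199 CPM of them, from 9, 61 and 78 cells. T or NK-like cells held 146, 400 and 111 CPM, from 8, 10 and 79 cells.

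Of the other effectors, Ifi27l2a had the highest levels of any member. It stood at 567, 1644 and 694 CPM in YKL, PTH and Control macrophage-like cells, 1145, 2701 and 206 CPM in neutrophil-like cells and 75.7, 327 and 101 CPM in fibroblast-like cells. Chondrocyte-like cells had 0.522, 2.24 and 0.603 CPM. Its log2 fold changes over chondrocyte-like cells were 9.53 ± 0.50, 9.76 ± 0.51 and 6.75 ± 0.46 in those classes, the largest in the macrophage and fibroblast-like classes. Bst2 had 308, 398 and 305 CPM in endothelial-like cells and 179, 191 and 183 CPM in macrophage-like cells, and 54 of the 126 YKL UMIs in macrophage-like cells lay in 1 cell. Psmb8 had 138, 187 and 181 CPM in endothelial-like and 265, 269 and 353 CPM in macrophage-like cells, against 0.894, 1.33 and 1.73 CPM in chondrocyte-like cells. Levels of Bst2 and Psmb8 thus differed by under 1.5-fold between the 3 libraries in both classes.

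Trim30a, a regulator of inflammatory signalling, rose by 6.12 ± 0.45 in endothelial and by 6.87 ± 0.44 in macrophage over chondrocyte-like cells. Rsad2 (viperin), which makes a chain-terminating nucleotide, had 581, 183 and 76.6 CPM in YKL, PTH and Control neutrophil-like cells, but 34 of the 36 YKL UMIs came from 1 cell. That same class held all 17 YKL UMIs of Ifit1 and all 24 of Ifit3 in 1 cell each. Samd9l, a restriction factor of poxviruses, had 145, 160 and 160 CPM in neutrophil-like cells, with 96.2, 121 and 94.4 CPM in endothelial-like and 9.09, 8.29 and 5.10 CPM in chondrocyte-like cells. The lone lower call was Lgals3bp, a secreted glycoprotein, with no UMI in any neutrophil-like cell. In Control it was at least 7.56-fold lower there than in chondrocyte-like cells, counting 3 UMIs as the floor of that library's neutrophil-like cells. Without the Control library the call was lost (adjusted p 0.182, edgeR).

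Whether the response lay in few cells or all was read from a core of 22 members that answer mainly to type I interferon, 20 of them measured: the IFIT and OAS genes, Isg15, Rsad2, Irf7, Usp18, Rtp4, Ifi44, Ifih1, Dhx58, Xaf1, Cmpk2 and Zbp1. Each cell of at least 2000 UMIs was thinned to 2000, which left 566 YKL, 1819 PTH and 2697 Control cells and took out 38, 93 and 210. Neutrophil-like cells went from 15, 21 and 429 to 11, 9 and 325 by this cut. Control cells of the mature neutrophil-like cluster had a median of 1910 UMIs, below the cut. They had 1710 CPM of the core, against 102 CPM over all Control cells, so the Control share below leaves out many cells of a high cluster. Cells with at least 3 core UMIs, called high cells below, numbered 11 in YKL (1.94%), 133 in PTH (7.31%) and 88 in Control (3.26%). If the same UMIs had been spread evenly over all cells, 0.146%, 3.74% and 0.604% would reach 3. That spread ignores the differences in level between classes, so it cannot tell few cells from few classes. Chondrocyte-like cells made up 73.9% of thinned YKL, 35.4% of PTH and 55.1% of Control cells. The shares over all cells join this makeup with any difference in level. Their order PTH, Control, YKL held in all 14 alternatives, none of which held the makeup fixed. Of these, 3 change the clustering alone and could not move the order. The gap narrowed at a limit of 5% mitochondrial UMIs, to 2.11% in YKL, 4.67% in PTH and 2.36% in Control. The high cells held 46.3% of core UMIs in YKL, 65.3% in PTH and 54.1% in Control.

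Within classes the core lay in a part of the cells. In PTH endothelial-like cells 48 of 256 were high (18.8%, Clopper-Pearson interval 14.2 to 24.1) where an even spread would give 27.3%, and the top 10% of cells held 49.8% of core UMIs, against 25.3% under an even spread. In YKL 3 of 44 endothelial-like cells (6.82%) and in Control 15 of 158 (9.49%) were high, against 1.62% and 4.18% under an even spread. Endothelial-like cells below 3 core UMIs also differed in their mean, with 0.268 core UMIs in YKL, 0.774 in PTH and 0.441 in Control. Among PTH endothelial-like cells 65.2% had at least 1 core UMI, against 27.3% in YKL and 43.0% in Control, and 6.99% of PTH chondrocyte-like cells did at the same depth.

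Fibroblast-like cells held high cells in the PTH library: 36 of 294 (12.2%), against 0 of 17 in YKL and 0 of 113 in Control. The Control count allows up to 3.21% by the exact interval. With 17 cells the YKL interval is far wider and includes the PTH share. An even spread of the PTH core UMIs would give a share slightly below the one seen. The 36 cells held 208 of the 325 core UMIs of PTH fibroblast-like cells, while those below 3 averaged 0.453 core UMIs, with 0.235 in YKL and 0.221 in Control. Ifit1 was found in 32 of the 294 PTH cells, and 38 of its 46 UMIs lay in high cells. In thinned Control fibroblast-like cells it was found in none of 113, and in PTH chondrocyte-like cells in 2 of 644.

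Macrophage-like cells were uneven too. In PTH 22 of 102 were high (21.6%, against 38.2% under an even spread), the top 10% of cells held 60.6% of core UMIs, and 46.1% of cells had no core UMI. YKL had 2 high cells of 26, and Control had 17 of 160 (10.6%). Control neutrophil-like cells had 39 high cells of 325 (12%), of which 24 belonged to the 80 cells of the mature cluster. In that cluster 30% of cells were high, against 72.9% under an even spread, and 1 cell held 53 core UMIs. Neutrophil-like cells supplied 39 of the 88 high cells of Control, while endothelial-like cells supplied 48 and fibroblast-like cells 36 of the 133 of PTH.

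**Figure D3:**
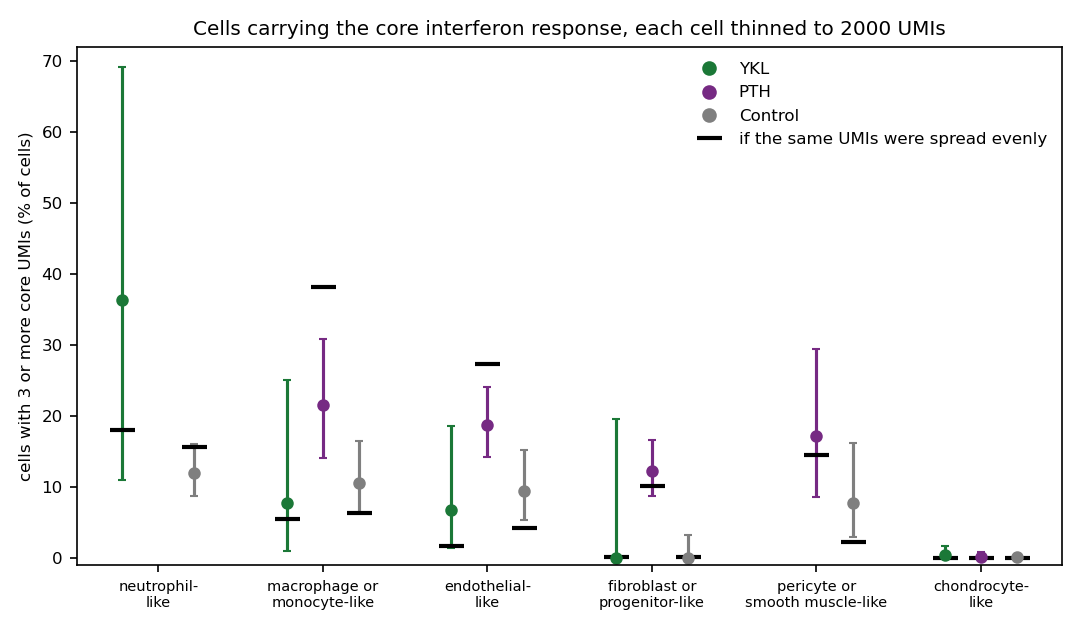
Share of cells with at least 3 core UMIs after thinning to 2000 UMIs (percent of cells) by class and library; bars are 95% Clopper-Pearson intervals and black dashes show the share if the same UMIs were spread evenly. Chondrocyte-like cells lie near 0, PTH lies above Control in endothelial, fibroblast, macrophage and pericyte-like cells, and classes with under 10 cells are left out.

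In cartilage, high cells were rare: 2 of 418 in YKL, 1 of 644 in PTH and 2 of 1487 in Control. The 2 YKL cells held 22 of the 46 core UMIs of their class. Members outside the core were spread more evenly. The ratio of variance to mean over thinned endothelial-like cells was 1.04 in YKL, 3.57 in PTH and 1.73 in Control for these, against 2.36, 5.56 and 2.05 for the core, where an even spread gives 1. Bst2 alone had a UMI in 43.2% of YKL, 46.5% of PTH and 36.1% of Control endothelial-like cells, whereas Isg15 had one in 4.55%, 21.5% and 14.6%. At the same depth Isg15 was found in 1.20%, 1.09% and 0.807% of chondrocyte-like cells.

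In some classes and libraries high cells differed from their neighbours in other readouts too. The 15 high Control endothelial-like cells averaged 34.3 UMIs of S100a8 and S100a9, against 1.83 in the other 143, while in PTH the averages were 0.0417 and 0.0337. The part of neutrophil RNA in the Control high cells was not tested. Members outside the core averaged 6.69 UMIs in the 48 high PTH endothelial-like cells, against 2.74 in the other 208. The median mitochondrial share was 6.37% in these high cells and 6.41% in the others, and dissociation and heat-shock genes averaged 7.17 and 7.01 UMIs. In Control endothelial-like cells these stress genes averaged 8.53 UMIs in high cells and 4.94 in the others. In neutrophil-like cells they averaged 33.25 and 22.29 in YKL, 41.25 and 18.6 in PTH and 18.38 and 11.95 in Control. The YKL pair rests on 4 and 7 cells and the PTH pair on 4 and 5. In Control macrophage-like cells the stress genes averaged 17.8 and 12.1. Averages ran the other way in PTH fibroblast-like (4.92 and 6.55), PTH macrophage-like (13.2 and 14.0) and YKL endothelial-like cells (5.0 and 6.0). The part of the stress genes in the high cells was not tested.

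Between libraries, PTH stood above Control in vessel and stromal cells. Each group had 1 library, so these ratios carry no test: each has a counting interval and no replicate check. Ratios were taken for members with at least 50 UMIs over both libraries in classes of at least 50 cells in both. Of the 29 members measured in endothelial-like cells, 22 were at least 1.5-fold higher in PTH than in Control and 0 at least 1.5-fold lower, where 10.4% of all genes were higher and 2.38% lower. The median ratio was 1.67, the median log2 ratio 0.74 against 0.13 over all genes. The other 8 members had too few UMIs, and since PTH held more UMIs of the class, the filter favoured members high in PTH. The count was 13 of 23 at a limit of 5% mitochondrial UMIs.

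Ifit1 had 68.8 CPM in PTH endothelial-like cells, against 8.73 CPM in Control ones, a ratio of 7.89 (95% interval 4.29 to 16.1). Ifit2 and Ifit3 had ratios of 8.25 (3.06 to 31.2) and 4.79 (2.63 to 9.56), and Isg15 had 2.10 (1.69 to 2.63). These IFIT genes had the 3 largest ratios. Bst2 had a ratio of 1.31, Psmb8 of 1.04 and Gbp2 of 0.84, so the immunoproteasome subunit and this GTPase lay near 1. Haemoglobin genes Hbb-bs and Hba-a1 together made up 10067 CPM of PTH and 79354 CPM of Control endothelial-like cells, and with haemoglobin, mitochondrial and ribosomal genes left out of the totals 17 members were higher. Dissociation and heat-shock genes reached 4253 CPM in PTH against 2960 CPM in Control cells of the class, and 6 of the 11 measured were at least 1.5-fold higher; their part was not tested. Of the 12 neutrophil markers 5 were at 0 in PTH and 2 in Control endothelial-like cells, and the summed level was 36.7 CPM in PTH, against 3945 CPM in Control; its part was not tested.

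In fibroblast-like cells 21 of 26 measured members were at least 1.5-fold higher in PTH than in Control and 0 lower, where 9.48% of all genes were higher and 7.05% lower. The median ratio was 2.25, and the median log2 ratio 1.17 against -0.01 over all genes. PTH held 3402406 UMIs of the class and Control 1165504, so here too the filter favoured members high in PTH. Ifit1 had 70.0 CPM in PTH, against 4.29 CPM in Control, a ratio of 16.3 (6.89 to 50.7). Isg15 had 97.0 CPM in PTH, against 17.2 CPM in Control, a ratio of 5.65 (3.60 to 9.38), and Ifi27l2a 327 CPM against 101 CPM, a ratio of 3.23. The ratio of Ifit3, 12.3, rests on 3 Control UMIs and has an interval of 4.11 to 60.7. Psmb8 ran the other way, with a ratio of 0.70. Dissociation and heat-shock genes reached 3366 CPM in PTH, against 2440 CPM in Control cells of the class, and 4 of the 11 measured were at least 1.5-fold higher. The haemoglobin genes made up 3834 CPM in PTH and 17296 CPM in Control, and the part of either was not tested. YKL had 18 fibroblast-like cells, too few for ratios, with 0 UMIs of Ifit1 and 1 of Isg15.

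In macrophage-like cells 10 of 22 members were at least 1.5-fold higher in PTH than in Control and 0 lower, where 17.0% of all genes were higher and 8.77% lower. This count was 18 at a limit of 20% mitochondrial UMIs and 4 of 17 when interferon genes were kept in the clustering. Ifi27l2a had 1644 CPM in PTH, against 694 CPM in Control, a ratio of 2.37 (2.20 to 2.55). Ifi44 had a ratio of 2.12 (1.44 to 3.14) and Isg15 of 1.79 (1.29 to 2.47). Neutrophil markers reached 63.6 CPM in PTH and 5094 CPM in Control macrophage-like cells, and their part was not tested. In pericyte-like cells 3 of 9 members were higher (Isg15, Bst2 and Iigp1, ratios 1.74, 1.51 and 1.5) and 0 lower, where 11.0% and 4.22% of all genes were.

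YKL endothelial-like cells lay below PTH ones. Of 28 members measured 0 were at least 1.5-fold higher and 21 at least 1.5-fold lower, where 8.81% of all genes were higher and 9.53% lower. This comparison shares the PTH library with the PTH to Control ratios above. PTH held 2368833 UMIs of the class and YKL 457533, so the filter again favoured members high in PTH. Ifit1 had 15.3 CPM in YKL, against 68.8 CPM in PTH, a ratio of 0.22 (0.09 to 0.47), and 7 YKL UMIs stand behind it. Isg15 had 56.8 CPM in YKL, against 174 CPM in PTH, a ratio of 0.33 (0.21 to 0.49), and Iigp1 had 0.30 (0.19 to 0.44). Against Control, 1 of 16 measured members was at least 1.5-fold higher in YKL endothelial-like cells and 4 lower, where 12.6% and 5.13% of all genes were, and the median ratio was 0.92. Control held 1260660 UMIs of the class, so there the filter favoured members high in Control. Iigp1 was among the lower, with 54.6 CPM in YKL, against 138 CPM in Control (ratio 0.40, interval 0.25 to 0.60), as was Rtp4, which helps receptors reach the membrane (0.47, 0.21 to 0.92).

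**Figure D4:**
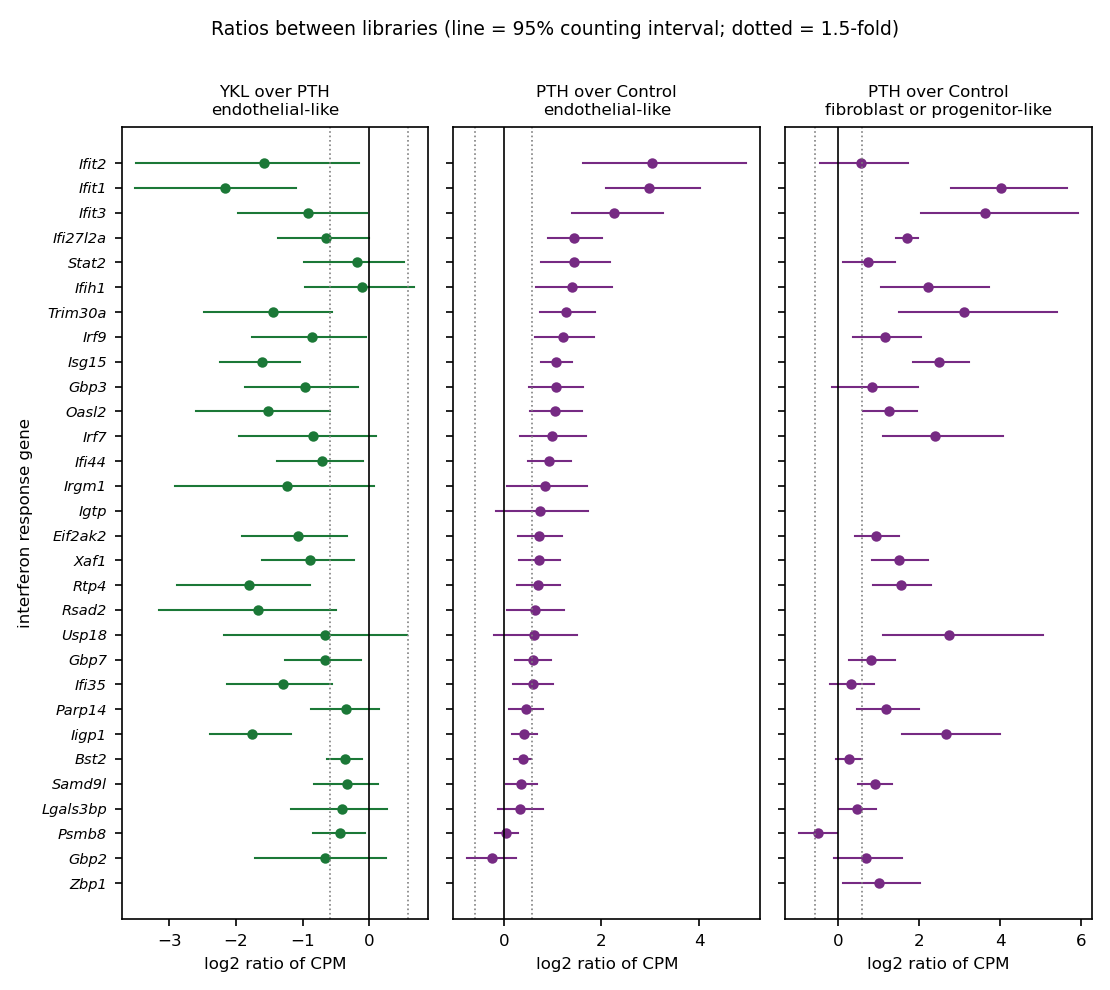
Log2 ratio of CPM for each measured member, YKL over PTH in endothelial-like cells (left) and PTH over Control in endothelial-like (middle) and fibroblast-like cells (right); lines are 95% exact conditional binomial intervals, dotted lines mark 1.5-fold. All 28 YKL over PTH points lie below 0, and 28 of 29 and 25 of 26 PTH over Control points lie above 0.

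In chondrocyte-like cells few members passed 1.5-fold between libraries. Of 13 members measured, 1 was at least 1.5-fold higher and 2 lower in YKL than in Control (all genes 9.70% and 7.97%), and 3 were higher and 0 lower in PTH than in Control (4.99% and 3.49%), with median ratios of 1.00 and 1.07. The 3 became 10 of 17 without the 5% of cells with the highest doublet scores, 7 of 15 with interferon genes kept in the clustering and 0 with clusters weighted equally. The clusters differed between libraries: the pair led by Ucma and Omd held 12 and 12 of the 434 YKL, 153 and 139 of the 664 PTH and 397 and 424 of the 1524 Control chondrocyte-like cells. In the cluster led by Ibsp and Panx3 the members reached 65.0 CPM in YKL, 97.7 CPM in PTH and 211 CPM in Control, and in the one led by Col10a1 and Ibsp 161, 103 and 126 CPM. Of 11 measured between YKL and PTH, 0 were higher and 2 lower (6.71% and 5.84%). Bst2 had 11.4 CPM in PTH, against 6.35 CPM in Control, a ratio of 1.80 (1.42 to 2.28), and its ratio of YKL to PTH was 0.52 (0.39 to 0.69). Samd9l had 9.09 CPM in YKL, against 5.10 CPM in Control, a ratio of 1.78 (1.38 to 2.30), which was 0.97 when the chondrocyte-like clusters were weighted equally.

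Few UMIs of the interferons themselves were found. Ifnb1 had 0 UMIs in all 3 libraries, which allows up to 0.192, 0.112 and 0.0836 CPM in YKL, PTH and Control, and Ifng had 2, 9 and 14 UMIs. Transcripts below this depth would not be seen. In endothelial-like cells the PTH to Control ratios were 0.92 for Ifnar1, 1.11 for Ifnar2 and 1.03 for Ifngr1, and of the 8 measured receptors and kinases 0 passed 1.5-fold in either direction. The transcription factor Irf1 had 62.9 CPM in PTH, against 41.2 CPM in Control (ratio 1.53, interval 1.11 to 2.13). In fibroblast-like cells the same ratio was 1.03, although 21 members were higher there. Ifnar2 in macrophage-like cells had 157 CPM in PTH, against 243 CPM in Control, a ratio of 0.65 (0.54 to 0.77), the 1 of 6 receptors and kinases past 1.5-fold there. PTH to Control ratios also passed 1.5 for Jak2 in fibroblast-like cells (1.56, 0.97 to 2.60) and Ifngr2 in pericyte-like cells (1.60, 1.03 to 2.47), and the YKL to Control ratio for Il10rb in endothelial-like cells (1.51, 1.00 to 2.27).

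By class, most receptors and kinases were higher outside cartilage, with median log2 fold changes of 1.23 in endothelial, 0.80 in fibroblast, 1.26 in macrophage and 1.44 in neutrophil-like cells. Of 8 tested, 7 were higher in endothelial, 4 in fibroblast, 7 in macrophage and 6 in neutrophil-like than in chondrocyte-like cells by edgeR's test. Of 54 other interferon-induced genes tested, 45, 38, 49 and 36 were higher and 1, 2, 1 and 2 lower. Between libraries, 10 of 39 of these other genes measured were at least 1.5-fold higher in PTH than in Control endothelial-like cells and 2 lower (all genes 10.4% and 2.38%), and 15 of 33 higher and 3 lower in fibroblast-like cells (9.48% and 7.05%). In macrophage-like cells 3 of 33 were higher and 2 lower (17.0% and 8.77%), with a median log2 ratio of -0.14. Among the most abundant, Ifitm3, which blocks virus entry, had 3001 CPM in PTH, against 2662 CPM in Control endothelial-like cells (ratio 1.13). The class I antigen-presenting gene H2-D1 had 1137 CPM, against 1161 CPM (0.98), and its partner B2m 789 CPM, against 683 CPM (1.16).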

How the data were processed

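The deposited files are raw counts of UMIs for every gene and barcode. Per the file headers, Cell Ranger 4.0.0 wrote them. The submitters' processing notes also name Seurat and mm10. Steps below were computed here from the counts. The members and gene lists were chosen with earlier results of these data known.

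Kept cells had 500 or more genes and no more than 10% mitochondrial UMIs. Scrublet marked 3 of 1041 YKL, 1 of 4301 PTH and 46 of 4918 Control barcodes, too few for it to have worked, so most doublets remain. Clustering (scanpy 1.11.5, 2000 variable genes, 30 components, 15 neighbours, Leiden resolution 0.8) left out 150 interferon genes. A cluster was named from at least 3 detected markers with one among its 10 leading genes; 5 of 22 stayed unnamed. Kept libraries held 15649560 YKL, 26770359 PTH and 35880912 Control UMIs. Intervals (95%) and the floor of 3 counts cover counting error only.

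Classes with at least 10 cells in every library were tested against chondrocyte-like cells with edgeR 4.0.16 (R 4.3.3) on summed counts; DESeq2 1.42.0 was an alternative. Ratios between libraries have no test. Both computations were tested on simulated data. Named genes were those of highest CPM by role or class, and in each comparison up to 6 (classes) or up to 3 per direction (libraries) with the largest change or clearest interval. Other genes were named to round out a role or a pathway after their values had been seen.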

Additional observations from a re-analysis of the deposited data

How the results depend on the processing

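Each alternative changed a single choice. The 33, 30, 32 and 29 members higher in endothelial, fibroblast, macrophage and neutrophil-like cells numbered 32 to 35, 18 to 32, 32 to 34 and 20 to 29 when a library was left out, with 18 without PTH and 20 without Control. Thinned to 2000 UMIs the first 3 counts were 20, 19 and 20 of 21 tested, and at most 5% mitochondrial UMIs left 16 of 27 in fibroblast-like cells. Without the 5% of cells with the most core UMIs, a choice added after seeing the data, they were 29, 28, 29 and 23. Neutrophil-like cells had under 10 cells in a library in some settings, which were not run. No paired analysis was possible because each treatment group had 1 library and the labels give no replicate numbers; the test between classes kept the library as a block.

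The PTH over Control counts of higher members changed as follows. In endothelial-like cells (22) they were 11 at a fold of 2, 6 of 14 when thinned and 13 at 5% mitochondrial. In fibroblast-like cells (21) they were 3 of 6 when thinned. In macrophage-like cells (10) they were 4 at 100 UMIs, 3 at a fold of 2, 1 of 4 when thinned, 18 at 20% mitochondrial and 4 with interferon genes in the clustering. In pericyte-like cells (3) they were 8 of 20 at 20 UMIs, 0 at a fold of 2 or thinned, 5 with doublets kept and 1 without mitochondrial, ribosomal and haemoglobin genes, with TMM, at 1000 genes, without the top 5% of doublet scores or at resolution 1.5. In chondrocyte-like cells (3) they were 6 at 20 UMIs, 0 at a fold of 2, thinned or with clusters weighted equally, 10 of 17 without the top doublet scores and 7 with interferon genes in the clustering. YKL over Control lower members in chondrocyte-like cells (2) were 0 at 100 UMIs, a fold of 2, thinned or without the top 5% of cells, 5 with clusters weighted equally, 4 at 200 genes and 1 at 1000 genes or with doublets kept; in endothelial-like cells (4) they were 1 at 100 UMIs and 2 at a fold of 2. YKL over PTH lower members in endothelial-like cells (21) were 11 at a fold of 2. In chondrocyte-like cells (2) they were 6 at 20 UMIs, 1 at a fold of 2, 0 when thinned, 7 without the top doublet scores and 4 with interferon genes in the clustering.

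The percent of high cells in YKL, PTH and Control (1.94, 7.31 and 3.26) was 3.36, 12.7 and 6.27 at 2 core UMIs, 0.707, 4.12 and 1.11 at 5, 1.17, 3.78 and 1.84 when thinned to 1000 UMIs, 3.96, 11.7 and 4.42 when thinned to 4000, and 10.9, 25.6 and 13.5 with all members. It was 2.11, 4.67 and 2.36 at 5% mitochondrial, and in Control 4.14 at 200 genes and 2.16 at 1000 genes. Samd9l in chondrocyte-like cells, YKL over Control, was 0.97 with clusters weighted equally, and Iigp1 in pericyte-like cells, PTH over Control, was 0.96 at 20% mitochondrial. The cause of these changes was not tested. Over all alternatives, 186 values of the counts and library-wide shares held (counts within 1.5 times, shares and ratios within their counting interval, tested values on the same side of the threshold) and 62 moved. Of the other values, mostly for single genes and classes, 1133 held, 106 moved, 2 reversed (above) and 1, Lgals3bp in neutrophil-like cells without Control, lost its call. YKL had 52 endothelial, 27 macrophage and 18 fibroblast-like cells, and these numbers limit what its classes can show.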
